A study of Mus musculus with 30 samples.

Results

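The imprinted mouse genes H19, Igf2, Kcnq1ot1, Cdkn1c, Peg3, Meg3, Dlk1, Grb10, Mest and Snrpn were followed through 20 ChIP-seq peak lists. They are 10 of the 55413 genes of the GENCODE M21 annotation (build GRCm38), and each was given a window that ran from 20 kb before to 20 kb after the gene body. The windows held 758 of the 1428772 peaks in the lists, and no 2 of the windows overlapped. The lists came from E14 mouse embryonic stem cells, an established line, grown in serum-free medium with leukemia inhibitory factor, PD0325901 and CHIR99021. Every group carried the CTCF AID genotype, an auxin-inducible degron on CTCF through which the auxin IAA sends the protein to the proteasome. The 0 h groups had no IAA and the 12 h groups had 12 h of IAA. CTCF and the cohesin subunit SMC1A were measured in CTCF AID cells with 1 library per time. CHD4, CHD8, SMARCA4 and SMARCA5 were measured in cells that also carried the biotin-tagged form of that protein (CTCF AID and biotin-CHD4, and so on) with 2 libraries per time. No group lacked the degron, so 0 h degron cells were the only reference for 12 h, and IAA was not measured apart from the loss of CTCF. The labels do not say whether the 2 libraries of a group came from separate cultures, and p-values below measure only the spread between these libraries.

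Imprinted genes are expressed from the maternal or the paternal copy according to DNA methylation laid down in the germ line at imprinting control regions. CTCF binds DNA through zinc fingers and is kept off some of its sites by methylation. Where it is bound it stops cohesin, a ring-shaped complex that draws DNA into loops. At H19 and Igf2, binding of CTCF to the unmethylated maternal control region is the textbook example of an insulator that keeps enhancers from Igf2. CHD4 is the ATPase of the NuRD complex, CHD8 a chromodomain helicase known to bind CTCF, SMARCA4 the ATPase of the BAF complex and SMARCA5 the ATPase of ISWI complexes. A peak list holds no allele, so both parental copies were read together in every value below. A list also holds no read depth, and a site without a peak may carry signal under the authors' threshold.

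The letters under the CTCF peaks are shown so that the sites can be compared with each other and with H19, where CTCF-like sequence was found and no CTCF peak. A motif of 19 bases was built from the 5000 strongest 0 h CTCF peaks outside the windows, with the consensus TGGCCACCAGGGGGCGCCA, and searched on both strands. Its threshold was the score that 5.00% of CTCF sites shifted by 100 kb reached. At that threshold 91.7% of all 29934 CTCF sites (0 h summit with 100 bp to either side) held a match, and so did 15 of 15 sites at the imprinted loci. A match is a description of letters, not a measured site. The sequences below are from GRCm38, written 5′ to 3′ on the strand named, with the match in capitals.

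The CTCF sites upstream of Cdkn1c, numbered 1 to 4 from the nearest to the farthest, matched at chr7:143464076-143464094 (minus strand), chr7:143466494-143466512 (minus), chr7:143470156-143470174 (minus) and chr7:143480697-143480715 (plus). The 2 sites in Meg3 matched at chr12:109542167-109542185 (plus) and chr12:109543036-109543054 (minus). The Peg3 site is on the minus strand at chr7:6727539-6727557, the 2 Grb10 sites at chr11:12025862-12025880 (plus) and chr11:11973603-11973621 (minus), and the strongest Dlk1 site at chr12:109437904-109437922 (plus).
Cdkn1c site 1: caagtCGGCCACCAGGGGGCAGCAtgaag
Cdkn1c site 2: gtctcTGACCACCAGGGGGCAGAAtgact
Cdkn1c site 3: gacctTGGCCAGCAGGCGGCGCCCaggtc
Cdkn1c site 4: agggaGTTCCACCAGGGGGCGCTAcagtg
Meg3 site 1: attgaTGGCCGCAAGAGGGCGCTGgtggc
Meg3 site 2: catagAGACCGCTAGGGGGCGCGCggccc
Peg3 intron site: tttgtTGGTCACAAGGGGGCGTCTggtat
Grb10 internal start site: agactTCGCCACACGGGGTCGCTGcgtgc
Grb10 intron site: agggaCTGCCACCAGGGGTCGGCAcagcc
Dlk1 upstream site: gagacCCGCCGGCAGGGGGCGCAGccagc

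The sequence from 10 kb upstream to 1 kb downstream of the H19 start held 10 matches, against a mean of 3.15 in other stretches of 11 kb, and none lay under a CTCF peak at either time. A peak list without reads does not show whether signal was missing there or the region was left out of the list, and this was not tested. The control region known upstream of H19 carries repeated CTCF sites, and 4 of the 10 matches shared a core and a strand (minus). They lay 2173, 2628, 3654 and 3898 bp upstream of the start, at chr7:142580307-142580325, chr7:142580762-142580780, chr7:142581788-142581806 and chr7:142582032-142582050. These 4 were picked out after the matches were seen. The stretch around the Kcnq1ot1 start held 1 match and that around the Snrpn start 0, which says only that these letters are not in that window.
H19 match 1: agacgATGCCGCGTGGTGGCAGTAcaata
H19 match 2: ggatgCTACCGCGCGGTGGCAGCAtactc
H19 match 3: cagggTTGCCGCACGGCGGCAGTGaagtc
H19 match 4: gggagTTGCCGCGTGGTGGCAGCAaaatc

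At 0 h the CTCF list placed 15 peaks in 7 of the 10 windows, where 50.1% of all gene windows held a CTCF peak. Cdkn1c, an inhibitor of cyclin-dependent kinases, had 4. Dlk1, a transmembrane ligand related to Notch ligands, had 3. Meg3 (a long noncoding RNA), Peg3 (a zinc-finger protein) and Grb10 (an adaptor that restrains growth-factor receptors) had 2 each, while Igf2 (a fetal growth factor) and Mest (a hydrolase-fold protein) had 1 each. H19 and Kcnq1ot1, both noncoding RNAs, and Snrpn, a spliceosome component, had none. The peaks were stronger than the typical peak of the list, with a median fold enrichment over background of 20.1 against 12.2 over all 29934 peaks. Fold enrichment and −log10 q are the authors' own values for each peak and rank peaks within 1 list only.

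The strongest of the 15 was Cdkn1c site 3, 9105 bp upstream of the gene (summit chr7 143470155, intergenic), with a fold of 32.6 and a −log10 q of 136. Cdkn1c sites 1 and 2, 3014 and 5435 bp upstream, had folds of 21.3 and 22.7. Cdkn1c site 4 lay 19649 bp upstream in an intron of Slc22a18, an imprinted transporter gene, with a fold of 26.9. The 4 sites therefore stood on the upstream side of Cdkn1c, with none in the gene body or downstream of it.

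In the Dlk1 and Meg3 domain, the strongest peak lay 14901 bp upstream of Dlk1 (summit chr12 109437922, intergenic, fold 27.6). A second peak 16399 bp upstream had a fold of 5.15, and a peak in the Dlk1 coding sequence, 34 bp from an annotated start of the gene, had a fold of 6.63. Both are among the weaker peaks of the list, at percentiles 4.34 and 12.5 by −log10 p. Meg3 site 1 (summit chr12 109542151) and site 2 (109543033) both fell in Meg3 exons, 1150 and 2032 bp downstream of its start. Their folds were 12.1 and 23.6.

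Peg3 had its stronger peak in its own intron, 2929 bp downstream of the start (summit chr7 6727502, fold 23.3), and the other in an intron of the neighbouring zinc-finger gene Zim1 (fold 13.3). Grb10 had a peak in an intron (summit chr11 11973564, fold 20.1) and another at an internal start site, 445 bp from an annotated start and in a stretch annotated as UTR (summit 12025879, fold 15.6). The Igf2 peak lay 5517 bp upstream of the gene (summit chr7 142672333, intergenic, fold 9.03). The Mest peak lay in a Mest intron (summit chr6 30737116, fold 5.38) and was weak for the list, at percentile 13.4.

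**Figure D1:**
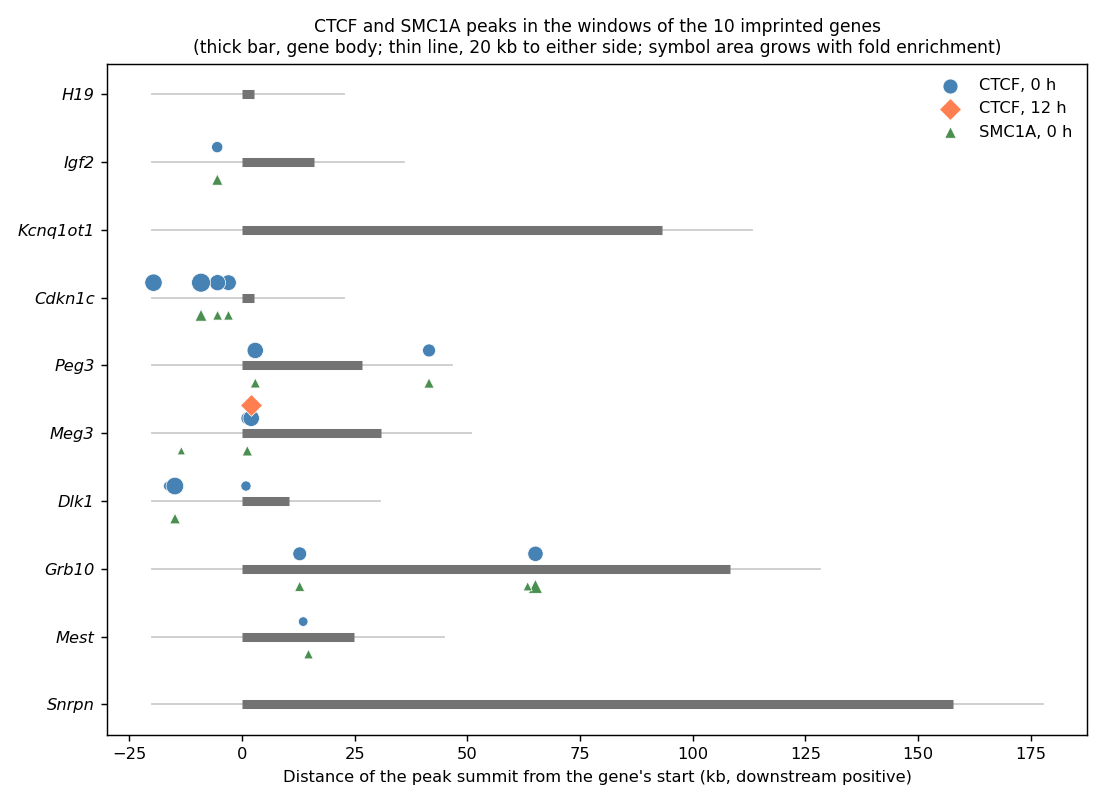
Summits of CTCF peaks at 0 h (circles) and 12 h (diamond) and of SMC1A peaks at 0 h (triangles), by distance in kb from the start of each of the 10 genes, with symbol area growing with fold enrichment. H19, Kcnq1ot1 and Snrpn have no symbol, the 4 Cdkn1c sites all lie upstream, and the diamond at Meg3 is the 1 peak in the 12 h list.

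The nearest CTCF peak beyond the 20 kb limit gives the reach of the counts. For H19 it lay 32.5 kb from the gene body (fold 8.10), and the same peak was 39.9 kb from Igf2. For Kcnq1ot1 it lay 49.2 kb away, in an intron of Kcnq1 (fold 13.6). Snrpn stood farthest from any CTCF peak, at 1212 kb (fold 6.99, in an intron of Atp10a), and 4.24% of all genes were farther from one. For the other windows the nearest outside peak was between 40.8 kb (Meg3) and 188 kb (Mest) from the gene body. Inside the limit, Cdkn1c site 4 was nearest to it, with its edge 19.3 kb from the gene body, followed by peaks 16.2 kb from Dlk1 and 14.7 kb from Peg3.

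After 12 h of IAA, 1 of the 10 windows held a CTCF peak, where 8.46% of all gene windows did. That peak was Meg3 site 2, which had a fold of 23.6 in the 0 h list and of 20.5 in the 12 h list (−log10 q 51.8, summit 109543037). It ranked 103rd of the 2248 peaks that the 12 h list held, whose median fold was 8.52. Meg3 site 1, in the same gene, had no 12 h peak. Of the 15 sites at the imprinted loci 14 had none, and over all 0 h CTCF peaks 92.6% had none. The retained share was 6.67% at the loci (exact Clopper-Pearson 95% interval 0.169% to 31.9%) and 7.44% (7.15% to 7.75%) over all peaks, a value inside the interval at the loci.

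Over the whole 0 h list, stronger peaks kept a 12 h peak more often. When the list was cut into 10 equal classes by −log10 q, the strongest class kept 43.7%, and Cdkn1c site 3, the single site of the loci in that class, had no 12 h peak. The next class kept 17.0%, and it held 5 sites of the loci, of which Meg3 site 2 kept its peak. CTCF has 1 library per time, so these values describe 2 libraries and no test was made.

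SMC1A, which marks cohesin, had 13 peaks at 0 h in 7 of the 10 windows, where 37.3% of all gene windows held one. Of the 15 CTCF sites, 11 overlapped an SMC1A peak (73.3%, exact interval 44.9% to 92.2%), and over all CTCF peaks 46.0% did. The share rose with CTCF strength over the whole list, to 66.5%, 73.6% and 78.4% in the 3 strongest of the 10 classes by −log10 q. Those 3 classes held 9 of the 15 sites, and 8 of these 9 had SMC1A. The 4 without one were Cdkn1c site 4, the 2 weak Dlk1 peaks and the Mest peak. Cdkn1c site 4 was strong in CTCF (fold 26.9), while its 3 neighbours each had SMC1A, with folds of 5.53, 5.56 and 10.4 from site 1 to site 3.

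The strongest SMC1A peak at the loci lay on the Grb10 intron site, with a fold of 15.8, at percentile 99.6 of the SMC1A list by −log10 p. The Grb10 internal start had an SMC1A fold of 6.10. At Igf2 the SMC1A fold was 8.41, at percentile 82.5, on a CTCF peak at percentile 33.7 of its own list. At Meg3 a single SMC1A interval (chr12:109541997-109543087, fold 6.78) spanned both CTCF peaks, and its summit lay near site 1. The upstream Dlk1 site had an SMC1A fold of 7.37, the Peg3 intron site 6.00 and the Zim1 intron site 6.47.

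In all, 3 SMC1A peaks lay apart from CTCF, in the Grb10 intron (fold 4.32), 13473 bp upstream of Meg3 (fold 2.81) and in a Mest stretch annotated as UTR (fold 5.17). The remaining 10 of 13 overlapped a CTCF peak, and 81.7% of all SMC1A peaks did. The 12 h SMC1A list held 10 peaks in the whole genome, none of them at these loci, and 0.0217% of all gene windows held one. With a list of that length the loci cannot be compared at 12 h.

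The 4 remodelers were then counted at the 15 CTCF sites, where a site was occupied if a remodeler peak overlapped the 0 h CTCF summit with 100 bp to either side. Of the 120 combinations of a site and a library at each time, 52 were occupied at 0 h and 27 at 12 h. At 11 of the 15 sites fewer libraries had a peak at 12 h than at 0 h, at 4 the number was equal, and at 0 it was larger. Over all 29934 CTCF sites 46.0% had fewer, 47.5% an equal number (38.7% with no remodeler peak at either time) and 6.47% more. Neither the Igf2 site nor Cdkn1c site 3, the strongest CTCF peak of the set, held a remodeler peak in any of the 16 libraries.

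CHD4 was the most frequent remodeler at these sites at 0 h, with peaks at 11 and 12 of 15 in the 2 libraries, and had 6 and 1 at 12 h. The mean was 76.7% ± 4.71 (SD, n = 2) at 0 h and 23.3% ± 23.6 at 12 h. Both 12 h libraries lay below both 0 h libraries, but they differed widely from each other. Over all 29934 CTCF sites the CHD4 mean was 41.2% ± 7.85 and 18.4% ± 6.01. The CHD4 replicates also differed in peak width, the medians being 433 bp in replicate 1 and 119 bp in replicate 2 at 0 h, then 475 and 94 bp, and the part of width in the counts was not tested.

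CHD8 had peaks at 7 and 6 sites at 0 h and at 5 and 3 at 12 h (43.3% ± 4.71 and 26.7% ± 9.43, SD, n = 2), and its groups did not overlap. Over all CTCF sites the CHD8 means were 23.9% ± 3.39 and 14.6% ± 2.26 (SD, n = 2), and those groups did not overlap either. SMARCA4 had 6 and 5 sites at 0 h and 4 and 5 at 12 h, and SMARCA5 2 and 3 at 0 h and 1 and 2 at 12 h. For these last 2 remodelers the groups met at 1 value. Over all CTCF sites SMARCA4 had means of 26.5% ± 6.51 and 23.1% ± 2.33 and SMARCA5 of 17.1% ± 4.45 and 12.1% ± 2.55 (SD, n = 2). Over the 4 remodelers the mean change was −20.8 percentage points (pooled SD between replicates 9.86), with −53.3 for CHD4, −16.7 for CHD8 and −6.67 each for SMARCA4 and SMARCA5. Over all CTCF sites the mean change was −10.1 points. The sites at the loci had stronger CTCF peaks (median fold 20.1 against 12.2). At 0 h they held CHD4 (76.7% against 41.2%), CHD8 and SMARCA4 more often, but not SMARCA5 (16.7% against 17.1%). The comparison was matched for neither, and their part in the change was not tested. The change at the loci was −9.17 points with peaks of −log10 q of at least 5 and −8.33 points when the remodeler summit itself had to lie in the site. These other rules were not applied to all CTCF sites, so −10.1 is no background for them. Within a remodeler the smallest exact permutation p that 2 libraries a group could give is 0.333.

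**Figure D2:**
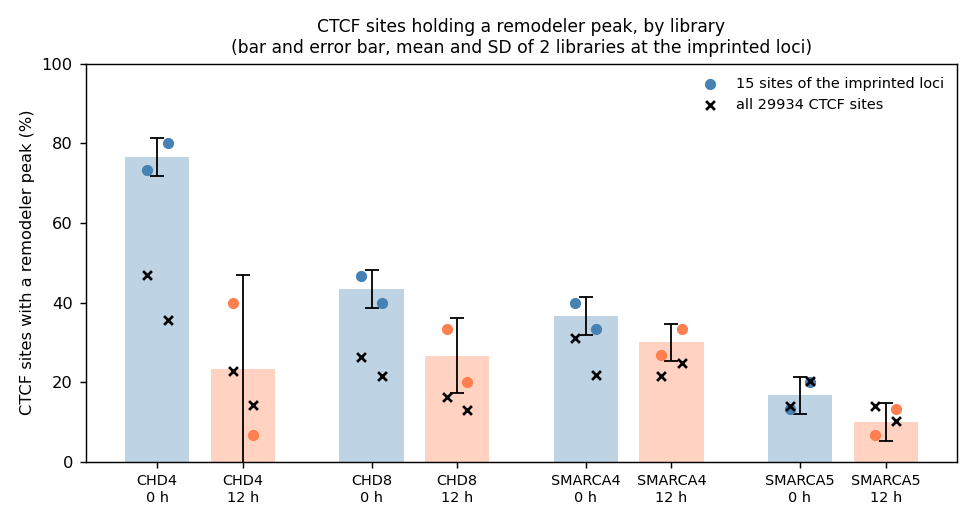
Percentage of CTCF sites with a remodeler peak in each library, for the 15 sites of the imprinted loci (circles, with bars and error bars for the mean and SD of 2 libraries) and for all 29934 sites (crosses), at 0 h (blue) and 12 h (orange). CHD4 stands at 73.3% and 80.0% at 0 h and at 40.0% and 6.67% at 12 h, and its lower 12 h error bar runs below the axis.

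A stricter count took a site as lost when both 0 h libraries and neither 12 h library of a remodeler had a peak. CHD4 was lost at 5 of the 15 sites, where 12.0% of all CTCF sites lost it. Only a site with a peak in both 0 h libraries could be lost. For CHD4 these were 10 of the 15 sites and 31.6% of all CTCF sites. Of the 10, 5 were lost, and of the 9448 such sites in the whole list 3595 were. CHD8 (background 4.52%), SMARCA4 (2.21%) and SMARCA5 (2.38%) were each lost at 1. Sites that could lose them were 6, 4 and 2 of the 15, and 18.9%, 19.7% and 9.46% of all CTCF sites. No site gained CHD4 (background 0.130%), CHD8 (0.200%), SMARCA4 (1.02%) or SMARCA5 (0.658%). The 5 sites that lost CHD4 were Cdkn1c sites 1 and 2, the upstream and coding-sequence sites of Dlk1 and the Grb10 intron site.

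The 2 Grb10 sites differed. The intron site had remodeler peaks in 7 of 8 libraries at 0 h and in 0 of 8 at 12 h. There CHD4 had folds of 4.47 and 3.69, SMARCA4 of 4.47 and 4.44 and SMARCA5 of 3.82 and 3.84 at 0 h, and CHD8 had a peak in 1 library (3.72). This was the site of the single SMARCA4 loss and the single SMARCA5 loss. The merged region around it (chr11:11972737-11973924) had a peak in 1 library at 12 h, SMARCA4 replicate 1 (fold 2.22). The internal start site had peaks in 8 of 8 libraries at both times. SMARCA5 at that site was high in its lists, with folds of 7.15 and 7.91 at 0 h and of 6.78 and 4.58 at 12 h, at percentiles from 93.5 to 98.7 by −log10 p. CHD4 there had folds of 6.97 and 10.3 at 0 h and of 7.74 and 6.00 at 12 h. CTCF itself had no 12 h peak at either Grb10 site.

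At Cdkn1c, site 1 had peaks in 5 libraries at 0 h and 1 at 12 h, and it was the single site that lost CHD8 (folds 3.96 and 4.63 at 0 h, no peak at 12 h). That loss holds within 100 bp of the CTCF summit and not for the whole region. The merged remodeler region around the site (chr7:143463789-143465611) had peaks in 6 libraries at 0 h and 8 at 12 h, among them CHD8 (8.56 and 3.90) and CHD4 (7.16 and 5.21) in both 12 h libraries. Site 2 had CHD4 alone, in both 0 h libraries (3.85 and 3.33) and in no 12 h library. Site 4 had CHD4 folds of 5.18 and 5.99 at 0 h and of 2.73 in 1 library at 12 h. The sites upstream of Cdkn1c thus ranged from no remodeler peak at site 3 to 5 libraries at site 1.

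At Meg3, site 1 had peaks in 5 libraries at 0 h and 4 at 12 h, and site 2 in 6 and 5. Site 2, the one with CTCF at 12 h, kept all 4 CHD8 peaks (7.97 and 6.94 at 0 h, 8.46 and 5.75 at 12 h) and all 4 SMARCA4 peaks (5.38 and 4.41, then 5.38 and 3.81). CHD4 at site 2 had folds of 9.37 and 7.75 at 0 h and of 5.08 in 1 library at 12 h. In replicate 2 at 12 h a CHD4 peak (chr12:109542688-109542900, fold 6.88) ended just short of that site. The merged region over both Meg3 sites (chr12:109538611-109543203) held CHD4 in both 12 h libraries (folds 5.73 and 6.88). The upstream Dlk1 site had CHD4 alone, with folds of 4.22 and 4.16 at 0 h and no peak at 12 h. The site in the Dlk1 coding sequence had 5 libraries at 0 h and 3 at 12 h, while the merged region around it (chr12:109452797-109453927) had 7 and 6 and held CHD4 in 1 library at 12 h (fold 4.87). The Mest site had 1 library at each time.

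**Figure D3:**
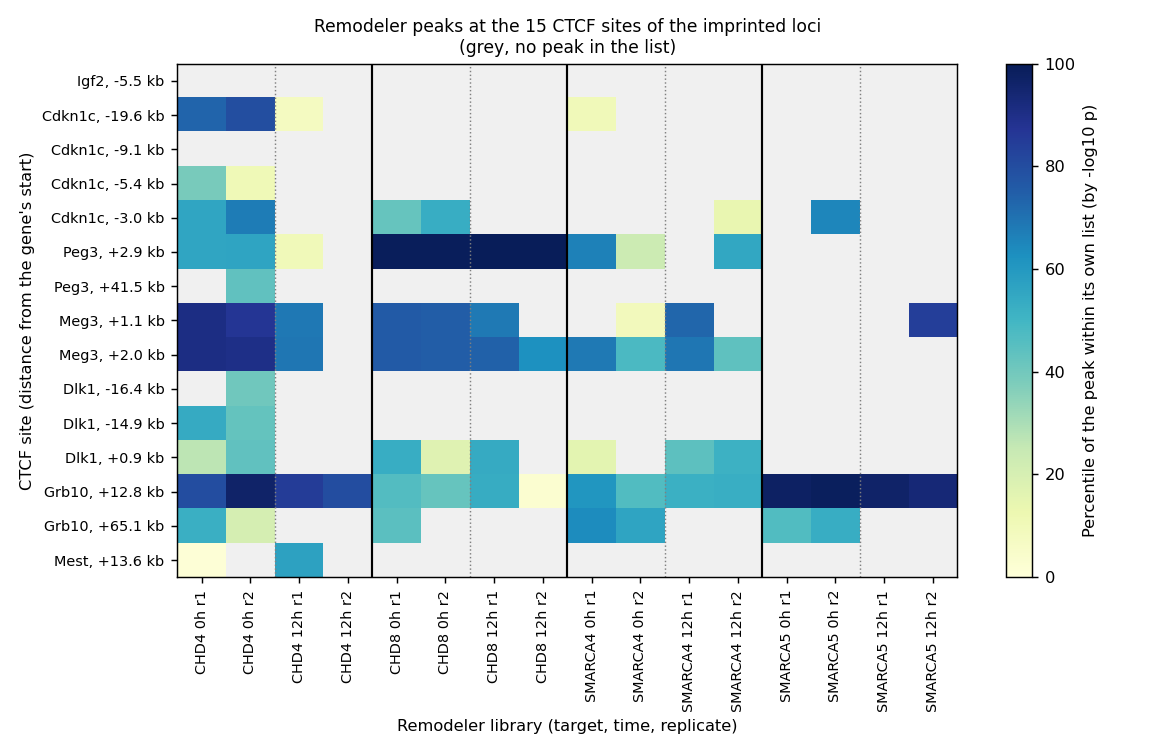
Remodeler peaks at the 15 CTCF sites (vertical axis, named by gene and distance from its start in kb) in the 16 libraries (horizontal axis), coloured by the percentile of the peak within its own list by −log10 p, with grey for no peak. The Grb10 internal start is filled in all 16 libraries, the Grb10 intron site is filled in 7 libraries at 0 h and 0 at 12 h, and the Peg3 intron site is darkest in the 4 CHD8 libraries.

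Within each CHD8 list, the peaks at Peg3 and Snrpn had the highest folds of the 10 windows. At the Peg3 intron site CHD8 had folds of 54.4 and 42.6 at 0 h and of 61.7 and 43.5 at 12 h. Each was among the top 1% of its list by fold (top 0.528% and 0.607% at 0 h, top 0.270% and 0.355% at 12 h), and the median fold of the 4 CHD8 lists was 4.22 to 4.35. The CHD8 peak ran over the start of Peg3, and CTCF, present under it at 0 h with a fold of 23.3, had no peak there at 12 h. CHD4 at the same site had folds of 4.21 and 4.84 at 0 h and of 2.62 in 1 library at 12 h, and SMARCA4 had peaks in both libraries at 0 h and in 1 at 12 h. These falls hold near the CTCF summit and not for the whole region. The merged region around the site (chr7:6726793-6731380) had peaks in all 16 libraries. At 12 h its CHD4 folds were 4.85 and 4.69 and its SMARCA4 folds 4.36 and 4.84.

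At Snrpn the CHD8 peak (chr7:60002938-60005278 in replicate 1 at 0 h) lay in an intron shared by Snrpn and Snurf, the upstream frame of the same transcript, with its summit 1802 bp from the Snurf start. Its folds were 35.5 and 28.0 at 0 h and 30.1 and 21.4 at 12 h, in the top 1.57% to 2.60% of the lists by fold. No CTCF peak lay within 1212 kb of this gene, so a CHD8 peak of this size stood there without one at either time. In the other windows the highest CHD8 fold was 10.9, at Cdkn1c. Other remodelers also had peaks high in their own lists, such as CHD4 downstream of Cdkn1c in replicate 1 at 12 h (top 0.290% by fold) and SMARCA5 at the Grb10 internal start in replicate 1 at 0 h (top 1.41%). Folds from different lists were not compared as a change or between remodelers.

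The sequence under these 2 CHD8 peaks was searched because the start region of Peg3 is known for repeated sites of the zinc-finger factor YY1. The motif AANATGGCG, chosen after the folds were seen, was counted on both strands in a window of 500 bases to either side of the strongest CHD8 summit of each window in replicate 1 at 0 h. Peg3 held 4 matches and Snrpn 0, as did the other windows with a CHD8 peak in that library. Of all 51943 CHD8 peaks of that library 5.27% held a match and 0.177% at least 4. Matches were more frequent under strong peaks, and of the 520 peaks in the top 1% by fold 39.4% held a match and 0.385% at least 4. The 4 Peg3 matches lay on the plus strand at chr7:6727301-6727309, chr7:6727423-6727431, chr7:6727845-6727853 and chr7:6727964-6727972, and are shown, with the match in capitals, as the repeats under the strongest CHD8 peak of the windows.
Peg3 repeat 1: ggccaacaAAGATGGCGccaatgaa
Peg3 repeat 2: ggccaacaAAGATGGCGccagaggg
Peg3 repeat 3: gacaagtaAAGATGGCGcccaggtg
Peg3 repeat 4: cgtcagcaAAGATGGCGtcaggtgg

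**Figure D4:**
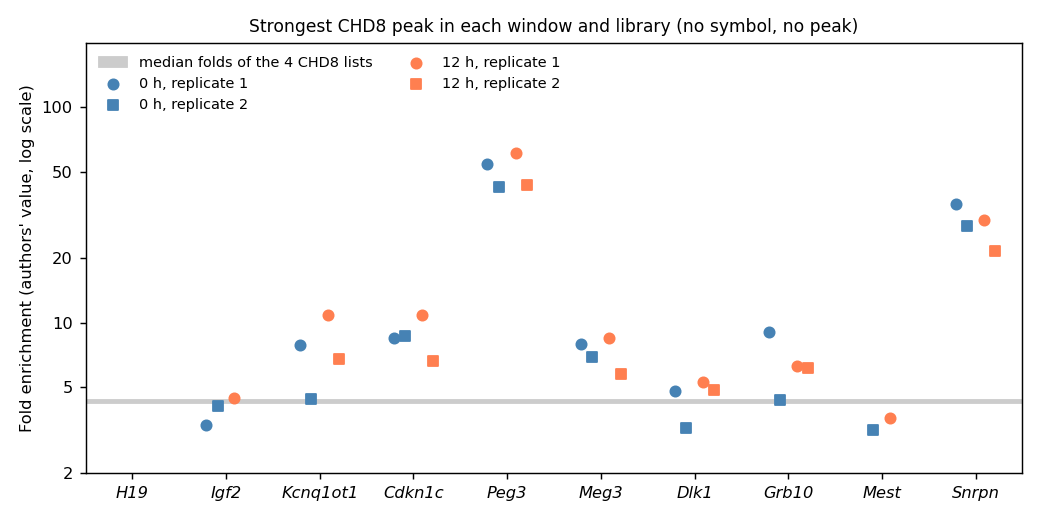
Fold enrichment (log scale) of the strongest CHD8 peak in each of the 10 windows, by library, with 0 h in blue, 12 h in orange and the range of the list medians as a grey band. Peg3 (42.6 to 61.7) and Snrpn (21.4 to 35.5) stand above the other windows in all 4 libraries, and H19 has no CHD8 peak.

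Most remodeler peaks of the windows lay away from CTCF sites. Merged over the 16 libraries, the peaks formed 100 regions, of which 35 were seen in 1 library, 26 in at least 8 and 9 in all 16. Of those 9, 3 overlapped a CTCF peak of 0 h. Grb10 had 4 of the 9, Meg3 2, and Cdkn1c, Peg3 and Snrpn 1 each. At the other extreme, H19 had 2 regions, each seen in 1 CHD4 library (fold 3.11 in replicate 1 at 0 h and 3.91 in replicate 1 at 12 h), both downstream of the gene, and none of the other 3 remodelers had a peak in its window.

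The region at the Cdkn1c start (chr7:143458863-143462231) was high in CHD4, with folds of 8.46 and 9.18 at 0 h and of 11.7 and 7.82 at 12 h, and in CHD8, with 8.49 and 8.63 and then 10.9 and 6.65. A second Cdkn1c region crossed the downstream limit of the window (chr7:143437232-143438809) and reached CHD4 folds of 11.8 and 7.95 at 0 h and of 17.0 and 7.64 at 12 h.

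The start of Kcnq1ot1 lies in an intron of Kcnq1, in the control region of that domain, and held a region in 15 of 16 libraries (chr7:143294657-143297662) with no CTCF peak. CHD8 folds there were 7.88 and 4.43 at 0 h and 10.8 and 6.79 at 12 h. SMARCA5 had no peak in replicate 1 at 0 h, a fold of 2.87 in replicate 2 and folds of 3.00 and 4.16 at 12 h. The other 5 regions of the Kcnq1ot1 window were seen in at most 5 libraries.

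Upstream of Meg3, where the intergenic control region of the domain is known to lie, a region was present in all 16 libraries (chr12:109527439-109533202) and did not overlap a CTCF peak. SMARCA4 had folds there of 11.2 and 10.7 at 0 h and of 10.8 and 8.20 at 12 h, at percentiles from 94.2 to 96.4 of its lists. The second Meg3 region (chr12:109538611-109543203) covered the start and both CTCF sites.

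The strongest SMARCA4 peak of the Grb10 window lay, in each of the 4 SMARCA4 lists, in 1 of 2 intronic regions without CTCF. The folds were 11.1 and 10.9 at 0 h and 14.3 and 9.29 at 12 h in chr11:11939723-11944373. They were 13.6 and 15.5 at 0 h and 7.78 and 7.35 at 12 h in chr11:11946565-11950140, at percentiles of 97.3 and 97.1 and then of 91.8 and 91.2. The other 2 regions in all libraries were the internal start and the upstream start (chr11:12036038-12038700), where CHD4 had folds of 8.80 and 9.61 at 0 h and of 8.47 and 7.89 at 12 h.

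At Mest a region near an internal start (chr6:30737414-30738991) was held by CHD4 in all 4 libraries, with folds of 5.47 and 9.70 at 0 h and of 5.07 and 6.70 at 12 h. SMARCA5 had no peak there in replicate 1 at 0 h, a fold of 3.32 in replicate 2 and folds of 7.32 and 3.95 at 12 h. CHD8 and SMARCA4 had no peak in that region. At Igf2 a region was held by CHD4 alone (chr7:142669891-142670563), with folds of 7.93 and 6.81 at 0 h and of 5.52 and 7.41 at 12 h.

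To compare whole windows, the share of each window covered by peaks was set against the share of the genome covered in the same library, as log2 of the ratio with a pseudocount of 100 bp, and the change from 0 h to 12 h was averaged over the 4 remodelers. Windows with a peak in 4 or more of the 16 libraries, 37219 of 55413, were tested by an exact stratified permutation test, two-sided, with Benjamini-Hochberg adjustment over all of them. Of the 10 imprinted genes 9 were tested, and H19, with peaks in 2 libraries, was not. No window passed the adjusted threshold of 0.05 (0% of windows, smallest adjusted p 0.230), and 12.2% (4528 windows) had an unadjusted p under 0.05. The smallest p that this permutation test could give was 0.00154. Over 37219 windows, a window could pass only if many others also came near that p, however large its own change. The absence of calls at the 9 genes therefore does not show that their coverage was unchanged. The median change was −0.01, with 51.9% of all tested windows lower at 12 h. Among the 9 genes 5 were lower and the median change was −0.02.

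Peg3 had the largest fall among the 9, −0.57 on the log2 scale (mean relative coverage 0.95 at 0 h and 0.38 at 12 h), with lower values in 4 of 4 remodelers. Its exact permutation p was 0.0417 and its adjusted p 0.386, so the change did not pass. With peaks of −log10 q of at least 5 the change was −0.28 (exact permutation p 0.617). CHD4 covered 4.84% and 2.51% of the Peg3 window at 0 h and 2.77% and 0.326% at 12 h. CHD8, with the large peak, covered 6.77% and 6.35% and then 7.32% and 6.11%, and its change was −0.02.

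Kcnq1ot1 had the largest rise, 0.63 (exact permutation p 0.117, adjusted p 0.526), with higher values in each of the 4 remodelers. With peaks of −log10 q of at least 5 it was 0.23 (exact permutation p 0.549), below Cdkn1c (0.61) and Dlk1 (0.30). SMARCA5 covered 0% and 0.358% of its window at 0 h and 0.501% and 0.718% at 12 h. The rise was 1.69 in SMARCA5, and 0.45 in CHD4, 0.26 in CHD8 and 0.12 in SMARCA4, where the times overlapped. With a pseudocount of 500 bp the mean rise at Kcnq1ot1 was 0.35 (exact permutation p 0.122). Grb10 changed by −0.19 (exact permutation p 0.159, adjusted p 0.578), and by −0.03 with peaks of −log10 q of at least 5 (exact permutation p 0.920). The changes at Igf2 (−0.03), Cdkn1c (0.18), Meg3 (0.01), Dlk1 (0.02), Mest (−0.02) and Snrpn (−0.07) had exact permutation p from 0.710 at Cdkn1c to 0.960 at Meg3.

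Within a remodeler, the relative coverage of the 2 times either overlapped or stood apart. CHD4 stood apart at 5 of the 9 genes, Igf2, Peg3, Dlk1, Grb10 and Mest, and was lower at 12 h in each. In plain percent covered, its groups stood apart at Dlk1 (2.67% and 1.81%, then 0.691% and 0.562%) and Mest and overlapped at Igf2, Peg3 and Grb10. Over all tested windows 33.9% stood apart in CHD4, 7607 lower and 5003 higher. CHD8 stood apart at Igf2 alone, lower at 12 h (background 34.6%, 7440 windows lower and 5442 higher), where it covered 1.04% and 0.664% and then 0.792% and 0%, so the plain percents overlapped. SMARCA4 had separate values at Mest alone (background 38.0%, 7657 lower and 6488 higher), and there it covered 0.374% and 0% at 0 h and 0% in both 12 h libraries. With 3 of its 4 libraries at 0, their order comes from the pseudocount over each library's genome coverage, and no fall is read from it. SMARCA5 stood apart at 5 genes (background 32.8%, 6115 lower and 6108 higher), lower at Grb10 and higher at Kcnq1ot1, Meg3, Dlk1 and Mest. In plain percent SMARCA5 overlapped at Meg3 (1.56% and 3.59%, then 5.46% and 3.57%). At Mest SMARCA5 covered 0% and 0.531% at 0 h and 1.62% and 1.39% at 12 h, while CHD4 covered 3.89% and 1.73% and then 1.72% and 0.478%. In the windows of Kcnq1ot1, Dlk1 and Mest, replicate 1 of SMARCA5 had no peak at all at 0 h, and its list of 55488 peaks was the shortest of the 4 SMARCA5 lists.

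**Figure D5:**
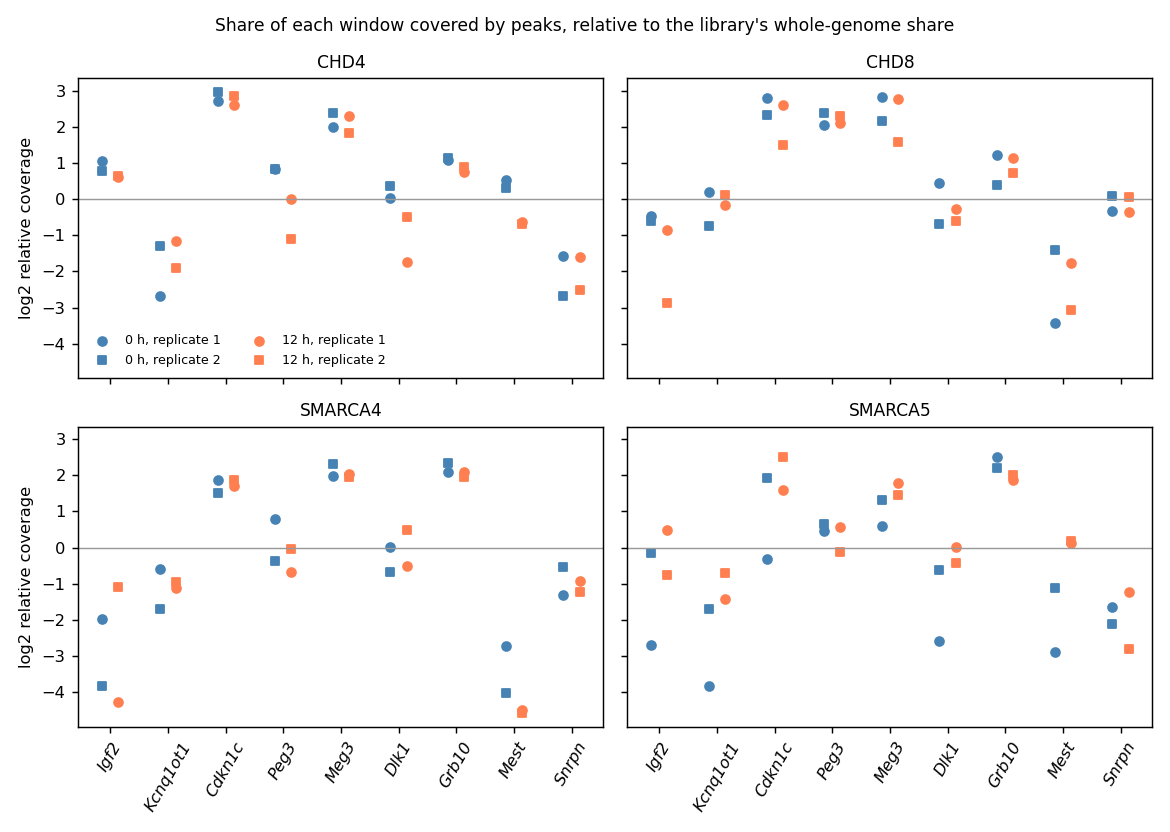
Share of the window covered by peaks relative to the share of the genome covered in the same library (log2, 0 for the genome share), for the 9 tested genes in 4 panels by remodeler, with 0 h in blue, 12 h in orange, and circles and squares for replicates 1 and 2. CHD4 points at Igf2, Peg3, Dlk1, Grb10 and Mest are lower at 12 h, SMARCA5 points at Kcnq1ot1, Meg3, Dlk1 and Mest are higher, and Cdkn1c and Meg3 lie above 0 in most libraries.

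The windows also differed in level. Cdkn1c and Meg3 had the highest mean relative coverage at 0 h (1.97 and 1.95), followed by Grb10 (1.62) and Peg3 (0.95). In this mean over the 4 remodelers Dlk1 (−0.46), Igf2 (−0.98), Snrpn (−1.26), Kcnq1ot1 (−1.54) and Mest (−1.84) lay under the genome share. CHD4 by itself lay above it in both 0 h libraries at Igf2 (1.05 and 0.79), Mest (0.53 and 0.32) and Dlk1 (0.02 and 0.37). At Snrpn and Kcnq1ot1 it lay below. Libraries without a peak, such as SMARCA4 replicate 2 at Igf2 (−3.82) and Mest (−4.01), take their value from the pseudocount. Neighbours in the order of the means were not tested against each other. The Snrpn window was low as a whole (CHD4 covered 0.862% and 0.167% of it at 0 h), and its CHD8 peak stood in an otherwise sparse stretch with 2 merged regions.

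Start sites of 6 embryonic stem cell markers and of 9 markers of other lineages were examined within 1 kb for remodeler peaks. CHD4 had a peak in both 0 h libraries at 6 of 6 (Pou5f1, Sox2, Nanog, Zfp42, Esrrb and Klf4), and at 8 of 9 markers of other lineages. CHD8 had one at 5 of 6 and 4 of 9, SMARCA4 at 5 of 6 and 8 of 9, and SMARCA5 at 4 of 6 and 3 of 9. A remodeler peak is not a measure of expression. As CHD4 and SMARCA4 had peaks at most markers of both kinds, these counts do not tell cell types apart. The part of other cell types in the results was not tested.

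For comparison 49 other imprinted genes were counted, of which 9 lay in a window of the 10 genes or overlapped one, such as Slc22a18 and Kcnq1. The other 40 had 59 CTCF peaks at 0 h in 32 windows. Of those peaks 6 (10.2%) kept a 12 h peak and 28 (47.5%) overlapped SMC1A. Of their windows 39 were tested for remodeler coverage, none passed after adjustment, 7 had an unadjusted exact permutation p under 0.05, 23 were lower at 12 h and the median change was −0.07. Over all tested windows 12.2% had such a p and 51.9% were lower. Some of the 39 windows overlap each other, such as those of Zrsr1 and Commd1, both among the 7, so they are not separate loci. The difference between these genes and the 10 was not tested.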

How the data were processed

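ChIP-seq peak lists of 20 of the 30 samples were used, and the 10 inputs were not analysed here. Per the submitters' processing notes, Trim Galore, Bowtie2, MACS2 and deepTools were used, with the builds mm10 and hg38 named. Their settings are not given in the sources used here. Each list belongs to 1 sample. The authors' deposited columns were read, from the layout and values, as fold enrichment (a ratio to background), −log10 p, −log10 q and, as another kind of value, the summit's distance from the peak start. The deposited score column holds 10 times the −log10 q, cut to a whole number, and was not used. Depth per sample is unknown, and intervals cover counting error over peaks only.

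Windows, overlaps (at least 1 bp), coverage and permutation tests (1296 relabellings, smallest p 0.00154) were computed in Python 3.11.15 with numpy 2.4.6, scipy 1.17.1 and pandas 2.3.3. The permutation test was also run on simulated data, with the replicate noise of each window capped at the median over windows. That noise is lower than in part of the real windows, so the run does not measure the power of the test on them. The genes and lists were chosen with earlier results of these data known. All 10 genes are named; each locus' strongest CTCF peak, CTCF peaks with a 12 h peak, those within 10 kb upstream and those within 1 kb of a start are given in full. Counts of windows whose 0 h and 12 h libraries stand apart were pooled over both directions after the values were seen, with the counts in each direction beside them. Alternatives covered peak threshold, window, overlap rule, list length, pseudocount, filter, scaling, replicate block, peak name style and each library left out.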

Additional observations from a re-analysis of the deposited data

Results flagged for a closer look

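In 2 windows the relative coverage of CHD4 was lower in both 12 h libraries than in both 0 h libraries, and that of SMARCA5 was higher. At Dlk1 the change in relative coverage was −1.31 for CHD4 and 1.39 for SMARCA5 (log2), a difference of −2.70. At Mest the change was −1.10 for CHD4 and 2.15 for SMARCA5, a difference of −3.25. Replicate 1 of SMARCA5 at 0 h covered 0% of both windows, so the size of these changes depends on the pseudocount. SMARCA4 at Mest had a value of −1.17, which differs from SMARCA5 by −3.32. It had a peak in the Mest window in 1 library, replicate 1 at 0 h, so the order of the other 3 libraries is set by the pseudocount and no fall is read from it. These differences were not tested.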

How the results depend on the processing

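Of the 15 CTCF peaks, 15 had a −log10 q of at least 5; windows of 10 kb held 11 and windows of 50 kb held 23. The mean occupancy change of −20.8 points was −9.17 with a −log10 q of at least 5 and −8.33 by the summit rule, and −25.0 to −16.7 with each library left out. It was −15.0 with equal list lengths, −15.2 with windows of 50 kb and −21.6 with windows of 10 kb. No window was called under any alternative run. The permutation p has a floor in these runs too. The replicate block and the runs with a library left out had fewer relabellings than the main test. The absence of calls therefore does not show that the result is stable. With a replicate block 4271 windows had an unadjusted p under 0.05, against 4528. Same-numbered libraries deviated together weakly in CHD4 (correlation 0.19) and CHD8 (0.23), in opposite directions in SMARCA4 (−0.25) and hardly at all in SMARCA5 (−0.02). As the remodelers differed in this, the numbers were not taken as pairs in the main test. The SMARCA4 pairing was also crossed, a choice made after seeing the data, and gave 4805 such windows and 0 calls. With the block the occupancy change was −20.8 points and the exact permutation p at Peg3 0.109.

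Coverage changes near 0 switched sign. Dlk1 was −0.07 with a pseudocount of 500 bp and −0.24 with equal list lengths. Snrpn was 0.06 points in plain percent and 0.15 with a −log10 q of at least 5. Mest was 0.04 with that threshold, 0.22 with 10 kb, 0.12 with 50 kb and 0.30 with equal list lengths. Igf2 was 0.07 with 50 kb and 0.18 with equal lengths. Meg3 was −0.06 with 50 kb, −0.03 with equal lengths and −0.05 when the times were compared within peak name styles. Peak names start with the time in CHD4 replicate 1 at 12 h. They also do in replicate 2 at 0 h and replicate 1 at 12 h of SMARCA4 and of SMARCA5. All other lists name the target first, and what the styles stand for is not given. With each library left out, the range was −0.43 to 0.37 at Igf2, −0.10 to 0.46 at Cdkn1c, −0.14 to 0.16 at Meg3, −0.22 to 0.27 at Dlk1, −0.28 to 0.23 at Mest and −0.26 to 0.13 at Snrpn. Peg3 (−0.71 to −0.43), Kcnq1ot1 (0.37 to 0.90) and Grb10 (−0.30 to −0.09) kept their sign. The causes were not tested. The lists carry no depth, so weak peaks limit every count.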
